A study of Mus musculus with 6 samples.

Results

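The genes described here encode the nuclear subunits of respiratory complexes II, III and IV, cytochrome c and the ATP synthase (complex V). They were chosen by name, as the protein-coding genes called Sdha to Sdhd, Cyc1 or Cycs, or whose symbol begins with Uqcr, Cox followed by a digit from 4 to 8, or Atp5 in the GENCODE M21 mouse annotation. The rule found 50 gene entries among the 55471 genes of the count table: 4 of complex II, 9 of complex III, 1 for cytochrome c, 18 of complex IV and 18 of complex V. They carry 49 symbols, since Atp5o has an additional entry (ENSMUSG00000116933) that held no count. All exonic bases of that entry are shared with Donson and the main Atp5o entry on the same strand. Whether reads there went uncounted was not tested. Of the 50 entries, 42 had enough counts to be tested, among 13044 genes tested in all. The symbols are those of the annotation used, and some have since been renamed.

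RNA sequencing counted transcripts in a cultured line of mouse undifferentiated pleomorphic sarcoma (UPS), a soft-tissue tumour, labelled as metastatic. The knockout group had 3 libraries of genotype Setd1a Knock Out, and the control group had 3 libraries of genotype WT, numbered 1 to 3 in each group. Setd1a encodes a histone methyltransferase of active promoters, and the comparison asked how expression differed between knockout and control cells. The titles also carry a further tag for each group, AAV2 in the control group, whose meaning is not given and which cannot be told apart from the genotype. Whether the knockout cells are a single clone or a pool is not given in the sources used here. The labels do not state whether each replicate was a culture of its own. The p-values therefore reflect the spread among these libraries alone, which may be technical.

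Complex II, the succinate dehydrogenase, passes electrons from succinate to ubiquinone and is the only complex of the chain that is also an enzyme of the tricarboxylic acid cycle. Complex III passes them on to cytochrome c, a small soluble carrier, and complex IV from there to oxygen, while the ATP synthase makes ATP from the proton gradient that the chain builds. Complexes III, IV and V each combine nuclear subunits with subunits encoded in the mitochondrial genome, in complex III mt-Cytb alone, whereas complex II is wholly nuclear. Nuclear respiratory genes are known as targets of the transcription factors NRF-1 and GABP, an ETS factor, whose sites lie close to many of their start sites.

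Promoters were taken from RefSeq (GRCm38.p6), which matched 35 of the 49 symbols with 38 promoters, and were read from 250 bases before to 30 bases after the start, 280 bases in all. Those of 5 genes are shown, because between them they hold each of the motifs searched and come from complex II, cytochrome c, complex IV and the ATP synthase, Atp5g2 included. All lie on the minus strand and are printed 5′ to 3′ as transcribed, with matches to a motif on either strand in capitals. The windows are chr13:74350211-74350490 for Sdha, chr6:50566540-50566819 for Cycs, chr19:7217587-7217866 for Cox8a, chr15:102671018-102671297 for Atp5g2 and chr16:84834947-84835226 for Atp5j.
Sdha: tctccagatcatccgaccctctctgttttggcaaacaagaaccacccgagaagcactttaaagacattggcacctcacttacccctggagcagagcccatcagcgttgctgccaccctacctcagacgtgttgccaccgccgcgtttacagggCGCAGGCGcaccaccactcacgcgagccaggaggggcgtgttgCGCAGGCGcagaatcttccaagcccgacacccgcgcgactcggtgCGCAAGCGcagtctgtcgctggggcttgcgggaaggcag
Cycs: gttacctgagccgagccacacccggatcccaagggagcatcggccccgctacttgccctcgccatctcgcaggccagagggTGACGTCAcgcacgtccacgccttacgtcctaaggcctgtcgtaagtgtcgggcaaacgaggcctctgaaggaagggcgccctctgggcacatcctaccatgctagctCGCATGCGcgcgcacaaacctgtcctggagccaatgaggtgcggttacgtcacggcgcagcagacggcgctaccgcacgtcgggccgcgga
Cox8a: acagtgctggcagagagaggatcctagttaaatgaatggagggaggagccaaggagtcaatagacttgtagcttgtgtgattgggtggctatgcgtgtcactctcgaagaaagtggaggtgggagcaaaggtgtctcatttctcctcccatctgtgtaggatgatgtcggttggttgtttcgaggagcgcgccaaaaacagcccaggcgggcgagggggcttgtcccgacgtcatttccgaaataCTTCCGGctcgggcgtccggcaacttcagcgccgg
Atp5g2: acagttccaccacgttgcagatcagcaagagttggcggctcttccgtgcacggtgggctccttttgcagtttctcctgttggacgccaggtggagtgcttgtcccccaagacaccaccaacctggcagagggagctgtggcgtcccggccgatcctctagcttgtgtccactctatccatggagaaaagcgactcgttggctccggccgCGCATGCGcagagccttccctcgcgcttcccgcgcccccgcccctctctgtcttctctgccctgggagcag
Atp5j: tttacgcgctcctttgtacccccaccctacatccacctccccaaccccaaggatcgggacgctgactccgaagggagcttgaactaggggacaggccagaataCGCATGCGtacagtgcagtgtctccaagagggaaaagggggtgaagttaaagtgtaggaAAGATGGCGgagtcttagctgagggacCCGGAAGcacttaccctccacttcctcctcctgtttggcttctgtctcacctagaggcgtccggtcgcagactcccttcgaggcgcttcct

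The motif CGCANGCG, the core of the NRF-1 site, was found in 16 of the 38 promoters (42.1%), against 7.78% of all 32851 promoters of the same length. In Sdha it occurs at 3 places, beginning 97, 54 and 9 bases before the start, and in Atp5g2 once, 41 bases before it. The ETS core CCGGAAG was found in 12 of the 38 (31.6%), against 8.45% of all promoters. In Cox8a it lies on the opposite strand, beginning 5 bases before the start and running across it. The YY1 core AANATGGCG was found in 2 (5.26%), against 1.84%, and the cyclic AMP element TGACGTCA in 2 (5.26%), against 1.74%. Atp5j, which starts beside the divergently transcribed Gabpa, holds the NRF-1, ETS and YY1 motifs. The promoters compared were not matched for base composition or expression level. The motifs do not overlap one another in the printed windows, and a match is a description of letters, not of binding.

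Library totals lay between 17749533 and 18272622 counts. The Setd1a transcript was present in all libraries, at 53.2, 68.7 and 56.3 CPM in knockout and 71.0, 75.3 and 73.5 CPM in control libraries (CPM, counts scaled to library size by the TMM method). Its log2 change of -0.30 ± 0.12 (SE) did not pass edgeR's quasi-likelihood test (adjusted p = 0.426), and 52.3% of its exonic bases are shared with other genes, so the counts check the label weakly. All 10 mesenchymal and fibroblast markers were above 1 CPM, with a median highest level of 301 CPM, whereas 13 of 15 striated muscle markers stayed under 1 CPM and 6 of them were at 0. Of 10 macrophage, 10 endothelial and 10 epithelial markers, 6, 7 and 7 stayed under 1 CPM, as did all 8 testis markers. The highest macrophage, endothelial and epithelial markers were Cd14, Egfl7 and Krt18, which reached 14.4, 5.92 and 76.0 CPM. The mitochondrial genome gave 3.71 ± 0.217% of counts in knockout and 2.80 ± 0.272% in control libraries (SD, n = 3 each; exact two-sided permutation p = 0.1, the smallest that 3 against 3 can give). In bulk RNA, fewer cells of a type and less RNA per cell cannot be told apart.

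No subunit gene passed the test for a difference between knockout and control cells. The comparison without pairing called 0 of the 42 tested members at an adjusted p of 0.05, and 0 of all 13044 genes (0.0%), in edgeR's quasi-likelihood test with Benjamini-Hochberg adjustment; at an unadjusted p under 0.05 it had 2 members, Atp5g2 and Uqcrq, both lower in knockout libraries, where 4.51% of all genes were lower and 5.5% higher. Samples of the same replicate number deviated together, and the test with the number as a block (the paired test) called 298 genes (2.28%), 1.43% higher and 0.851% lower, again with 0 members among them. At an unadjusted p under 0.05 the paired test had 5 members, Sdhc, Sdhb, Uqcrq, Atp5g2 and Atp5k, all lower in knockout libraries, where 9.62% of all genes were lower and 9.94% higher. The smallest adjusted p of any member was 0.394 without pairing and 0.0636 with it, both for Atp5g2. DESeq2, run without pairing, called 133 genes and likewise 0 members.

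For most members the intervals bound the change to less than 1.5-fold in either direction, which leaves smaller changes open. The log2 changes ran from -0.38 to 0.17. For 38 of the 42 members the 95% interval of the unpaired test lay within a 1.5-fold change in either direction (all genes, 7950 of 13044). Exceptions were Uqcrq, Atp5g2 and Atp5k, whose intervals reach beyond it on the lower side, and Atp5s, whose interval reaches beyond it on the higher side. In the paired test 41 of 42 lay within 1.5-fold (all genes, 9158 of 13044), with Atp5g2 the exception. The median standard error was 0.125 without pairing and 0.0781 with it.

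**Figure D1:**
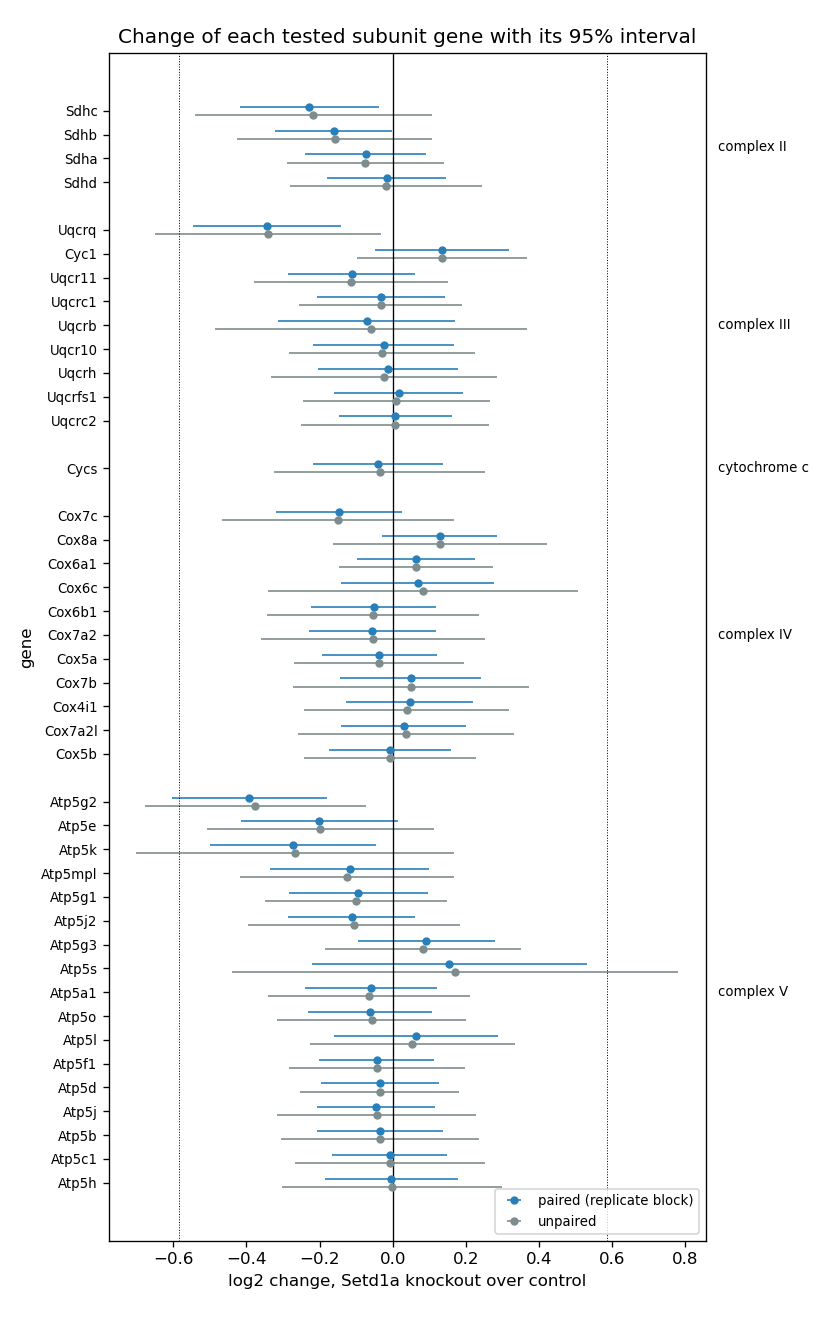
Log2 change of each tested subunit gene, knockout over control (horizontal axis), by complex (rows), with the 95% interval from the paired test (upper point of each row) and the unpaired test (lower point). Dotted lines mark a 1.5-fold change; the points lie between -0.39 and 0.17, and most intervals cross 0.

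In direction, 30 of the 42 log2 changes were below 0 (all genes, 49.8%), with a median of -0.04 (all genes, 0.00066). The median was -0.12 for the 4 subunits of complex II, all below 0, and -0.03 for the 9 of complex III, 6 below 0. It was 0.03 for the 11 tested subunits of complex IV, 5 below 0, and -0.04 for the 17 of complex V, 14 below 0. Without pairing, the median was 0.01 without knockout replicate 2 and 0.04 without control replicate 3, with 17 and 16 members below 0. Those fits leave the replicate numbers unbalanced between the groups; in the paired fit the median was -0.047, -0.015 and -0.036 without replicates 1, 2 and 3 in turn, with 27, 25 and 30 members below 0. Summed over all members, the level was 7166, 6893 and 7933 CPM in knockout libraries and 7171, 7102 and 8249 CPM in control libraries. The groups overlapped, and the knockout library was the lower in each pair, though nearly equal in pair 1. The sum of complex IV was instead higher in the knockout library of each pair, at 1480, 1385 and 1666 CPM against 1473, 1343 and 1644 CPM. Gene by gene, however, 6, 6 and 7 of its 11 tested subunits were lower in the knockout library of pairs 1, 2 and 3. In pair 1 the sums of complex III (1034 against 1026 CPM) and complex V (4123 against 4097 CPM) were also higher in the knockout library, and in pairs 2 and 3 lower.

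The levels of many members followed the replicate number in both groups. Replicate 3 was the highest library in both groups for 29 of 42 members (69.0%; all genes, 21.6%), and replicate 2 the lowest in both for 20 (47.6%; all genes, 18.1%). The nuclear complex I subunits had similar shares (69.4% and 52.8%), and tricarboxylic acid cycle genes had 52.9% and 23.5%, so the pattern was not particular to these members. What the replicate number stands for is not given in the sources used here. Within pairs, 14 members were lower in the knockout library of all 3 pairs (33.3%; all genes, 21.6%) and 1, Cox8a, was higher in all 3 (2.38%; all genes, 19.9%).

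**Figure D2:**
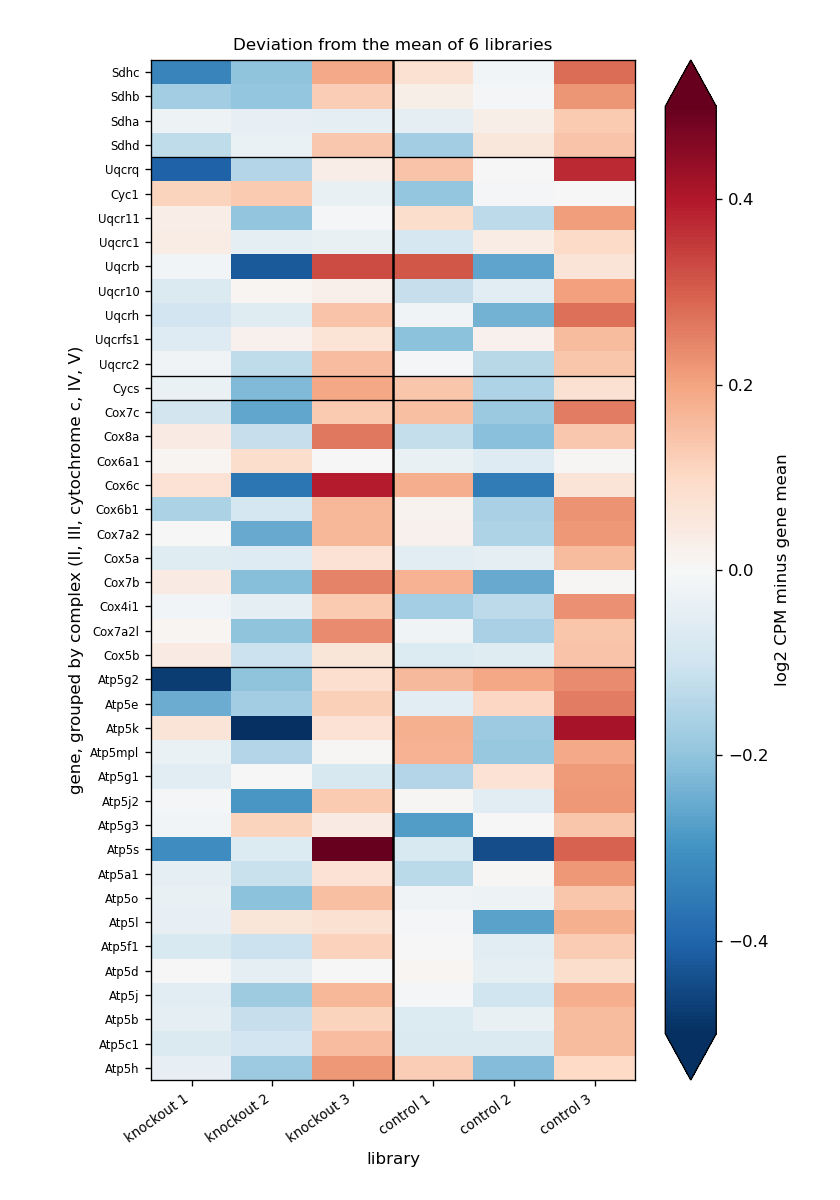
Log2 CPM of each tested member (rows, grouped by complex) in each library (columns, knockout on the left) minus its mean over the 6 libraries, in colour from -0.5 (blue) to 0.5 (red), with values beyond that range shown at its ends. The columns of replicate 3 are mostly red in both groups, in which it was the highest library for 29 of 42 members.

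Succinate dehydrogenase has a catalytic pair, Sdha with the flavin that oxidises succinate and Sdhb with the iron-sulfur clusters, and a membrane anchor of Sdhc and Sdhd, which binds haem and ubiquinone. Sdhc (ENSMUSG00000058076, chr1:171127165-171150603 of GRCm38, minus strand) had 63.8, 69.7 and 91.5 CPM in knockout libraries, against 84.7, 79.6 and 97.4 CPM in control libraries. The groups overlapped, since knockout replicate 3 lay above control replicates 1 and 2, while within each pair the knockout library was the lower. The log2 change was -0.22 ± 0.15 (SE; adjusted p = 0.710 in edgeR), and -0.23 ± 0.09 with an adjusted p of 0.184 in the paired test.

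Sdhb had 99.1, 97.9 and 122 CPM in knockout libraries, against 114, 111 and 130 CPM in control libraries, a log2 change of -0.16 ± 0.12 (adjusted p = 0.762). As with Sdhc, the knockout library was lower in all 3 pairs and the groups overlapped. Sdha had 158, 156 and 155 CPM in knockout libraries and 155, 163 and 175 CPM in control libraries, a log2 change of -0.08 ± 0.10. Sdhd had 91.5, 97.5 and 110 CPM in knockout libraries and 88.6, 104 and 110 CPM in control libraries, a log2 change of -0.02 ± 0.12 whose sign turned when single libraries were left out. Summed, complex II gave 412, 421 and 478 CPM in knockout and 442, 458 and 513 CPM in control libraries, lower in each pair.

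Complex III has cytochrome c1 (Cyc1) and the Rieske iron-sulfur protein (Uqcrfs1) as its nuclear catalytic subunits, a pair of core proteins (Uqcrc1 and Uqcrc2), and small supernumerary subunits. Both catalytic subunits had a log2 change above 0 and all 5 supernumerary subunits one below 0, none past the threshold. Apart from Cyc1 and Uqcrq, each of these changes was smaller in size than its SE (0.01 ± 0.12 for Uqcrfs1, -0.02 ± 0.14 for Uqcrh). In pair 3 both catalytic subunits were lower in the knockout library. Uqcrq, a supernumerary subunit (ENSMUSG00000044894, chr11:53427922-53430831 of GRCm38, minus strand), had 61.6, 73.5 and 83.5 CPM in knockout libraries, against 89.9, 81.5 and 106 CPM in control libraries. It was lower in the knockout library of all 3 pairs, and knockout replicate 3 lay just above control replicate 2. The log2 change was -0.34 ± 0.14 (adjusted p = 0.450 in edgeR; 95% interval -0.65 to -0.03), and -0.34 ± 0.09 with an adjusted p of 0.0770 in the paired test.

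Cyc1 had 190, 193 and 172 CPM in knockout libraries, against 154, 176 and 176 CPM in control libraries, a log2 change of 0.13 ± 0.10 (adjusted p = 0.775). The knockout library was the higher in pairs 1 and 2 and the lower in pair 3. Uqcr11 had 80.2, 68.3 and 78.0 CPM in knockout and 83.2, 71.6 and 90.5 CPM in control libraries, a log2 change of -0.11 ± 0.12. Uqcrc1 averaged 244 ± 8.04 CPM in knockout and 250 ± 15.9 CPM in control libraries, and Uqcr10 averaged 62.5 ± 2.22 CPM in knockout and 63.8 ± 7.70 CPM in control libraries (SD, n = 3 each). Uqcrb, Uqcrh, Uqcrfs1 and Uqcrc2 had log2 changes between -0.06 and 0.01. Of the exonic bases of Uqcrc2, 19.7% are shared with Pdzd9 on the opposite strand, and without a stated strand setting their reads cannot be told apart.

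Cycs, the somatic cytochrome c that also triggers apoptosis when released from mitochondria, had 117, 103 and 137 CPM in knockout libraries, against 132, 108 and 126 CPM in control libraries. Replicate 2 was the lowest in both groups, and the groups overlapped. The log2 change was -0.04 ± 0.13 (adjusted p = 0.974 in edgeR), with a 95% interval of 0.799 to 1.19 as a fold.

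Complex IV has subunits with a ubiquitous form and forms restricted to muscle, lung or testis. Counts of the restricted isoforms were at or near 0: Cox4i2 had 1, 1 and 0 counts in knockout and 2, 0 and 2 in control libraries, and Cox6a2 had 1, 2 and 0 in knockout and 2, 6 and 5 in control libraries. Cox6b2 had 1 count in each knockout library and 1, 1 and 0 in control libraries, while Cox7a1 had 1, 5 and 4 counts in knockout and 3, 3 and 4 in control libraries. These levels were too low to be tested. Cox7b2, Cox8b and Cox8c had 0 counts in all 6 libraries, which allows up to 0.165 to 0.168 CPM per library (3 counts; counting error only).

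The ubiquitous partners were all measured at high depth and none passed the test. Cox8a (ENSMUSG00000035885, chr19:7215153-7217616 of GRCm38, minus strand) had 226, 203 and 264 CPM in knockout libraries, against 203, 190 and 242 CPM in control libraries. It was higher in the knockout library of all 3 pairs, although the groups overlapped, with a log2 change of 0.13 ± 0.13 (adjusted p = 0.856 in edgeR) and an adjusted p of 0.356 in the paired test. Cox7c had 77.3, 68.8 and 90.2 CPM in knockout and 91.3, 72.4 and 98.4 CPM in control libraries, lower in all 3 pairs, with a log2 change of -0.15 ± 0.14 (adjusted p = 0.839). Cox6c had 102, 75.7 and 128 CPM in knockout and 110, 76.4 and 102 CPM in control libraries, and its log2 change of 0.08 ± 0.19 turned sign when single libraries were left out.

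Cox6a1 averaged 217 ± 7.30 CPM in knockout and 208 ± 4.92 CPM in control libraries, and Cox6b1 averaged 174 ± 21.0 CPM in knockout and 180 ± 24.5 CPM in control libraries (SD, n = 3 each). Cox4i1, Cox7a2, Cox7b and Cox7a2l, the last a supercomplex factor related to subunit 7A, had log2 changes of 0.04, -0.05, 0.05 and 0.03. Cox5a and Cox5b had log2 changes of -0.04 and -0.01. An annotated processed pseudogene nearly identical to Cox7a2l, Gm6969, held 31.8% as many counts as Cox7a2l itself, so reads of the pair may have been split and the level of Cox7a2l is uncertain.

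The ATP synthase has a catalytic F1 head (Atp5a1, Atp5b, Atp5c1, Atp5d and Atp5e), a rotating ring of subunit c, whose identical mature protein is encoded by Atp5g1, Atp5g2 and Atp5g3, a peripheral stalk and small supernumerary subunits. Atp5g2 (ENSMUSG00000062683, chr15:102662864-102672352 of GRCm38, minus strand) had 71.2, 86.0 and 105 CPM in knockout libraries, against 110, 113 and 116 CPM in control libraries. All 3 knockout values lay under the lowest control value. Atp5g2 was the single such member of 42 (2.38%; all genes, 7.77%), and 0 members had all knockout libraries above all control libraries (all genes, 7.49%). The log2 change was -0.38 ± 0.14 (adjusted p = 0.394 in edgeR; 95% interval -0.68 to -0.07), and -0.39 ± 0.10 with an adjusted p of 0.0636 in the paired test, so it did not pass either.

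The knockout libraries of Atp5g2 were unequal, and the log2 ratio within pairs was -0.63, -0.40 and -0.15. The other genes of the c ring did not share its direction throughout: Atp5g1 had 148, 154 and 146 CPM in knockout and 139, 162 and 179 CPM in control libraries, a log2 change of -0.10 ± 0.11. Atp5g3 had 177, 193 and 184 CPM in knockout and 147, 179 and 196 CPM in control libraries, a log2 change of 0.08 ± 0.12. Per exonic length, Atp5g2 made up 27.64, 30.01 and 35.45% of the summed level of the 3 genes in knockout and 40.78, 37.02 and 35.45% in control libraries, nearly equal in pair 3. Atp5g3 made up 52.8, 51.7 and 47.7% in knockout and 41.7, 44.9 and 46.0% in control libraries. These shares were chosen after the values were seen and were not tested.

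**Figure D3:**
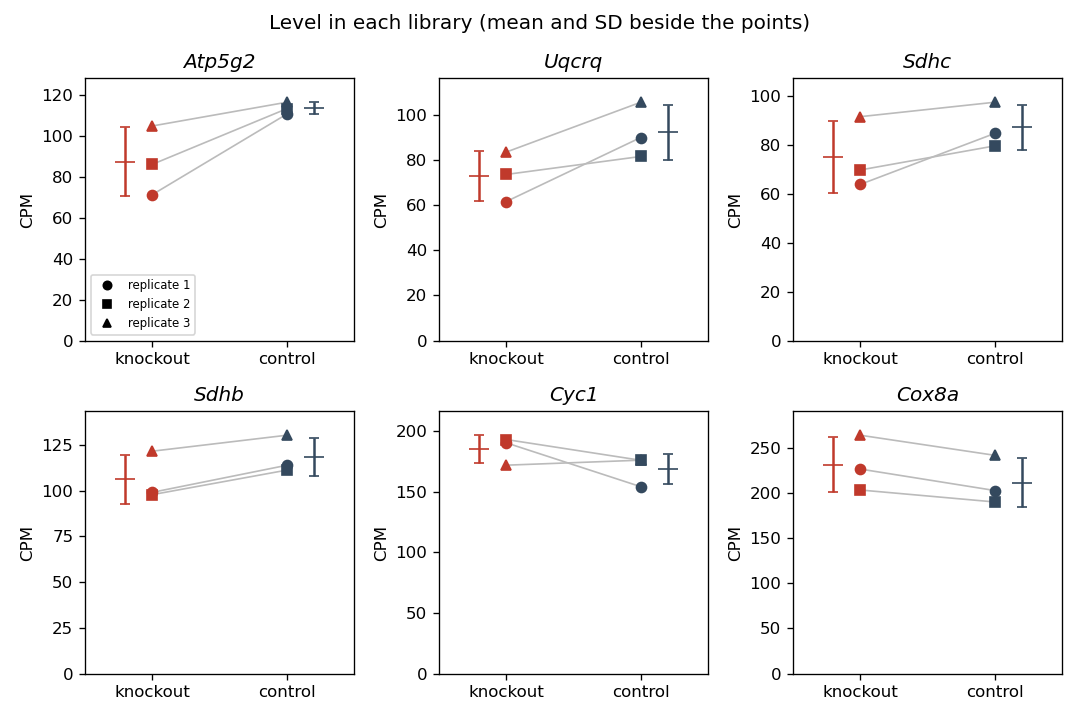
CPM (vertical axes, from 0) of 6 members in each library, knockout at the left of each panel and control at the right, with libraries of the same replicate number joined by a line and the mean and SD (n = 3) beside the points. Atp5g2 lies between 71.2 and 105 CPM in knockout and between 110 and 116 CPM in control libraries, while in the other panels the groups overlap.

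In the F1 head all 5 subunits had log2 changes below 0, from -0.20 to -0.01. Atp5b, the catalytic beta subunit, averaged 1531 ± 125 CPM in knockout and 1569 ± 136 CPM in control libraries, and Atp5a1, the alpha subunit, averaged 865 ± 57.0 CPM in knockout and 904 ± 111 CPM in control libraries (SD, n = 3 each). Atp5e, the epsilon subunit, had 24.1, 25.3 and 31.0 CPM in knockout and 27.4, 30.7 and 34.1 CPM in control libraries, a log2 change of -0.20 ± 0.14 (adjusted p = 0.726). It was lower in all 3 pairs, with overlap between the groups.

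Among supernumerary subunits, Atp5k (subunit e) had 28.4, 18.6 and 28.5 CPM in knockout and 30.8, 24.0 and 36.1 CPM in control libraries, lower in all 3 pairs, with a log2 change of -0.27 ± 0.20 (adjusted p = 0.749). Atp5mpl, a small proteolipid, had 34.5, 31.8 and 35.4 CPM in knockout and 39.7, 30.9 and 40.2 CPM in control libraries, a log2 change of -0.13 ± 0.13. Atp5j2 and Atp5l had log2 changes of -0.11 and 0.05. The tested subunits of the peripheral stalk, Atp5f1, Atp5h, Atp5j and Atp5o, had log2 changes between -0.057 and -0.002. Atp5s, the associated factor B, had the lowest level of the tested members (6.05 ± 2.09 CPM in knockout and 5.37 ± 1.36 CPM in control libraries) and the widest interval. Of the exonic bases of Atp5o, 47.9% are shared with other gene entries, its own additional entry included. Of those of Atp5j, 12.7% are shared with Gabpa on the opposite strand.

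Levels can be compared between genes only per length, here as TPM over all annotated exonic bases of each gene. On that scale Atp5b had 1180 ± 72.0 TPM in knockout and 1191 ± 77.4 TPM in control libraries, and Cox8a 1215 ± 135 TPM in knockout and 1098 ± 115 TPM in control libraries (SD, n = 3 each). These were the highest of the members, and their order cannot be told from the spread. Next came Cox6a1, Atp5a1 and Cox6b1, with means over all libraries of 982, 912 and 808 TPM. The subunits of complex II lay lower, with 263 TPM for Sdhd, 162 for Sdhb, 126 for Sdha and 80.7 for Sdhc, and Cycs had 114 TPM. With the longest annotated transcript as the length, Atp5b had 1982 TPM and Cox8a 930 TPM in control libraries, so the level of a gene with long alternative exons depends on that choice.

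**Figure D4:**
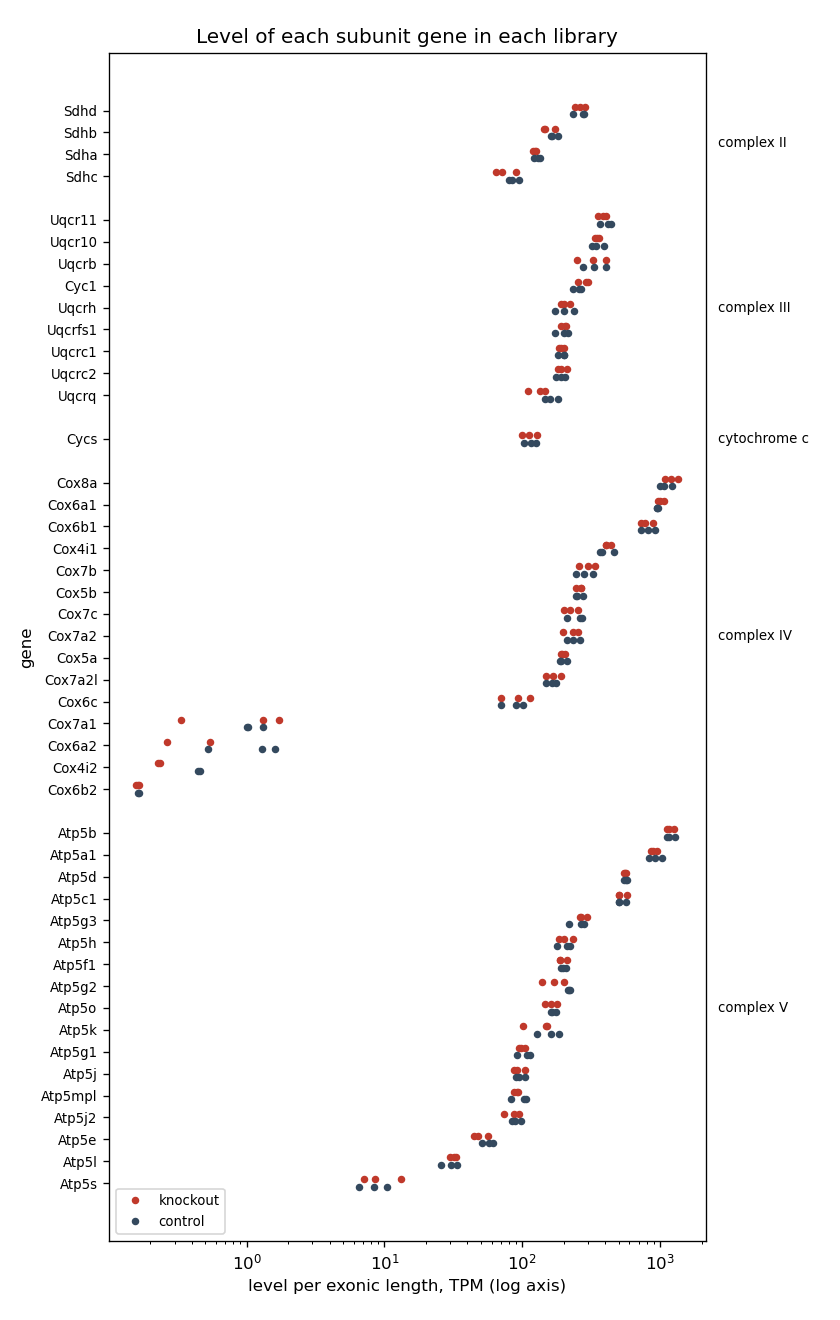
Level per exonic length (horizontal log axis, TPM) of each member with a count, by complex (rows), with 1 point per library, knockout above control; libraries at 0 have no point. Apart from Atp5s, the tested members have means between 30.7 and 1184 TPM, and the restricted isoforms of complex IV lie at or under 2 TPM.

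The subunits of complexes III to V that the mitochondrial genome encodes are measured in the same libraries. Of 6, 5 were tested, all with a log2 change above 0 (median 0.24) and 0 past the threshold. The knockout library was the lower for 4 of the 5 in pair 1, for 2 in pair 2 and for 0 in pair 3. Among them, mt-Co2, mt-Co3 and mt-Atp6 had at most 58 counts in any library. The median was that of mt-Co3 (0.24 ± 0.40), with 14, 15 and 20 counts in knockout and 14, 20 and 7 in control libraries. Whether such low counts reflect the levels of the transcripts was not tested. Only mt-Co1, the catalytic core of complex IV, and mt-Cytb, of complex III, exceeded 4 CPM. The first had 8896, 9886 and 13058 CPM in knockout and 9116, 8558 and 9107 CPM in control libraries (log2 change 0.25 ± 0.16, adjusted p = 0.689 in edgeR). The second had 4880, 5786 and 5898 CPM in knockout and 5335, 5309 and 4000 CPM in control libraries (log2 change 0.18 ± 0.15, adjusted p = 0.804). Both overlapped between the groups, and the difference between nuclear and mitochondrial subunits was not tested.

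Of the factors that assemble the complexes, 0 passed the threshold in the unpaired test. Of complex II assembly factors 3 of 4 had a log2 change below 0 (median -0.21), of complex III 4 of 6 (median -0.19), of complex IV 13 of 26 tested (median -0.02) and of complex V 5 of 6 (median -0.11). Of the nuclear complex I subunits 27 of 36 were below 0 (median -0.14), again with 0 called in either test. In the paired test 1 assembly factor of complex IV fell, Taco1, which activates translation of mt-Co1. Of all genes tested, 0.851% fell in the paired test.

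Taco1 had 7.60, 8.38 and 9.73 CPM in knockout libraries, against 13.9, 11.2 and 15.9 CPM in control libraries, and the groups did not overlap. Its log2 change was -0.67 ± 0.18 (adjusted p = 0.239 in edgeR), with an adjusted p of 0.0363 in the paired test that became 0.0936 without replicate 3, and 17.7% of its exonic bases are shared with Taco1os on the opposite strand.

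Among the remaining lists, 9 of 17 tricarboxylic acid cycle genes, 8 of 11 tested regulators of respiratory genes and 12 of 17 genes of the outer membrane and import machinery had a log2 change below 0, with medians of -0.04, -0.03 and -0.03. Gabpa, named outside the rule for described genes because it encodes the DNA-binding part of GABP, had 115, 95.3 and 110 CPM in knockout and 128, 107 and 86.2 CPM in control libraries (exact two-sided permutation p = 1.0). Of 3 tested adenine nucleotide and phosphate carriers 2 were below 0 (median -0.04), as were 4 of 5 cristae genes (median -0.13). The same held for 2 of 3 tested genes linked to the complexes but outside the naming rule, Ndufa4, Usmg5 and Atpif1 (median -0.22). Genes of cytochrome c release and the apoptosome had a log2 change above 0 in 7 of 10 cases (median 0.05). None of these lists held a gene called in either test.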

How the data were processed

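Total RNA of 6 libraries was sequenced after library preparation by BGI's procedure, per the labels' protocols. The authors deposited raw counts, whole numbers per Ensembl gene for 55471 genes; STAR, featureCounts, DESeq and the mm10 build are named per the submitters' processing notes, without versions, and without a stated strand setting, annotation release or treatment of reads matching several places. Of the identifiers, 55230 matched GENCODE M21 and 241 did not.

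Groups and replicate numbers came from the sample titles. No libraries of a group agreed within sampling noise (chi-square per degree of freedom 21.6 to 40 over genes with at least 60 counts in the pair). The main analysis used edgeR 4.0.16 under R 4.3.3 (TMM, filterByExpr, two-sided quasi-likelihood test, Benjamini-Hochberg adjustment over all 13044 genes tested, threshold 0.05). The main test has no block. As a check on using the replicate number as a block, deviations from group means were compared: those of same-numbered libraries correlated at 0.15, 0.464 and 0.383, each above the limit of 0.1; the pairing comes from the data, since no label says what a number stands for, and the fits existed before the limit was applied. Alternatives used DESeq2 1.42.0, limma 3.58.1, other scalings and filters, and left-out libraries. TPM used all annotated exonic bases. Pseudogene copies were found with BLAST 2.17.0 (95% identity over 100 bases). Steps were tested on simulated counts. There the unpaired test called 0% of genes given a log2 change of 0.3 and 18% of those given 0.6. The paired test called 18% and 72% of them.

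Members, gene lists and tests were chosen with earlier results of these data known. Described singly were the complex II subunits, Cyc1, Cycs, in complexes III, IV and V the 4 tested members with the smallest raw p and the 2 with the highest level per length, paralogous subunits, and from other lists at most 3 genes with the smallest raw p. Of 49 symbols, 14 had no promoter in the table used here. Some results for genes outside the subunits are not reported here.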

Additional observations from a re-analysis of the deposited data

How the results depend on the processing

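The spread between 3 libraries per group limited the precision, and at this depth a level of 0 counts allows up to 0.168 CPM. With no alternative of the 17 run was a member called, and the smallest adjusted p of a described member was 0.0617. The count over all genes, 0 in the unpaired test, was 298 with the replicate block, 74 with no filter on low counts and 133 in the DESeq2 test. In the unpaired test without single libraries it ranged from 0 to 31, the highest without knockout replicate 1, and in the replicate block it was 714 without replicate 1, 194 without replicate 2 and 0 without replicate 3. The members' median log2 change, -0.035, ranged from -0.108 to 0.038 without single libraries, and was above 0 at 0.014 without knockout replicate 2 and at 0.038 without control replicate 3. Of 459 values for described members, 37 changed sign and 422 kept their sign and their side of the threshold; every change of sign came from leaving out libraries. Without single libraries the log2 changes ranged from -0.11 to 0.049 for Sdhd, -0.15 to 0.071 for Cycs, -0.084 to 0.0068 for Uqcrc1, -0.11 to 0.27 for Cox6c, -0.095 to 0.072 for Uqcr10, -0.10 to 0.038 for Atp5b and -0.14 to 0.034 for Atp5a1, and from -0.16 to 0.051 for Cox6b1, -0.15 to 0.062 for Cox7a2, -0.068 to 0.17 for Cox7b, -0.036 to 0.17 for Cox4i1, -0.083 to 0.15 for Cox7a2l and -0.026 to 0.18 for Atp5g3. In the replicate block, signs turned to 0.036 for Sdhd, 0.0099 for Uqcrc1 and 0.0023 for Atp5b without replicate 2, to 0.025 for Cycs, 0.0079 for Cox6b1 and -0.0080 for Cox4i1 without replicate 1, and to 0.0093 for Uqcrc1, -0.074 for Cox6c, 0.044 for Uqcr10, -0.060 for Cox7b and -0.014 for Cox7a2l without replicate 3. The cause was not tested. The replicate block changed no call of a member.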
